A study of Mus musculus with 15 samples.

Results

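IL-17A was added to the combination of IL-33 and IL-13 in primary mouse lung fibroblasts, and 6 of the 15 libraries of the series bear on that step. The 3 libraries labelled IL-33/13/17A came from cells given recombinant IL-33, IL-13 and IL-17A. The 3 libraries labelled IL-33/13 came from cells given recombinant IL-33 and IL-13. Cells of both groups were wild-type BALB/cJ and were sampled 20 h after stimulation, so both groups carry IL-33 and IL-13. The other 9 libraries (IL-33/17A, IL-33 and untreated, 3 each, same strain and time) shared the model fit. The labels name neither doses nor animals nor separate cultures, and a p-value here reflects variation among the libraries alone, part or all of which may be technical. Members of the comparison were the 13120 of 18078 genes that reached 1 TPM in at least 3 of the 6 libraries. TPM, a measure of transcript abundance scaled to gene length and library total, is the unit the authors deposited.

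IL-17A binds a receptor made of IL-17RA and IL-17RC. The adaptor Act1, encoded by Traf3ip2, links that receptor to NF-kB and C/EBP transcription factors and to proteins that stabilise short-lived mRNAs. In fibroblasts and epithelium it is known for inducing chemokines that attract neutrophils, the colony-stimulating factor G-CSF and antimicrobial proteins. IL-33 also reaches NF-kB, through ST2 and MyD88, while IL-13 acts through IL-4Ra, IL-13Ra1 and STAT6.

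The cultures held RNA of both fibroblast and macrophage markers. All 14 fibroblast markers passed the filter, with a summed level of 10409 to 11012 TPM in IL-33/13/17A libraries and 11962 to 12327 TPM in IL-33/13 libraries. The 15 macrophage markers in the files, of which 14 were tested, summed to 17972 to 18834 TPM with IL-17A, against 18625 to 18831 TPM without it. Lyz2, the lysozyme of myeloid cells, averaged 8738 ± 178 TPM in IL-33/13/17A and 8810 ± 92.6 TPM in IL-33/13 (SD, n = 3 each). Of those tested, Cd14 and Itgam were called higher and C1qc lower (21.4% called, against 8.01% of all genes). With the library term, described below, 2 were higher and 0 lower (14.3%, against 4.39%), so C1qc was not called. The part of the called markers in other results was not tested. Only 3 of 10 epithelial, 3 of 9 endothelial and 2 of 13 lymphocyte and ILC2 markers passed the filter, and none of those 8 was called by limma. At an unadjusted p under 0.05 there were 3 of the 8, and limma-voom on recovered reads called 2 higher, Ptprc and Il7r. Markers below the filter were not tested and were not all without reads. The endothelial marker Pecam1 had 0.51, 0.51 and 0.48 TPM in IL-33/13/17A (48 to 54 reads), against 0.24, 0.25 and 0.31 TPM in IL-33/13 (27 to 34 reads). Its groups did not overlap, whereas those of Cdh5, Tek and Tie1, also below the filter, did. The filter was also passed by 5 of 7 mesothelial markers and by 8 of 10 smooth muscle and pericyte markers, the latter described below. It was passed by 2 of 9 mast cell and basophil and 2 of 12 neutrophil and eosinophil markers. limma called 0 of the mesothelial and 0 of the mast cell and basophil markers. In bulk RNA, fewer cells of a type and less RNA per cell cannot be told apart.

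The libraries also differed in the share of TPM from the 13 mitochondrially encoded genes. That share was 3.87% in IL-33/13/17A replicate 1, 4.99% in replicate 2 and 5.003% in replicate 3, against 3.50% to 3.81% in the IL-33/13 libraries. Over all 15 libraries a gap at 4.32% left 6 libraries below it (all 3 IL-33/13, IL-33/13/17A replicate 1, IL-33/17A replicates 2 and 3) and 9 above. The split thus runs partly along the comparison, and for IL-33/13/17A replicates 2 and 3 it cannot be told apart from IL-17A. Values are therefore given with a term for this split in the fit (the library term) and, where stated, within the low side, where IL-33/13/17A replicate 1 stands against the 3 IL-33/13 libraries. A low-side p comes from a fit of all 15 libraries, in which high-side IL-33/13/17A and IL-33/17A libraries had means of their own. Its spread is that within every group that held several libraries there, high side included. The single low-side IL-33/13/17A library is assumed to vary as they do, so low-side calls have no replicate of the group with IL-17A. Reads recovered from the TPM values numbered 11642099 in the shallowest of the 6 libraries and 12800695 in the deepest.

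Adding IL-17A changed 1051 genes past the limma test at an adjusted p of 0.05, 8.01% of those tested. Of these, 481 were higher (3.67%) and 570 lower (4.34%) in IL-33/13/17A. A change of at least 2-fold on the log2(TPM + 1) scale was seen in 35 higher genes (0.267%) and 16 lower genes (0.122%). With the library term 576 genes were called (4.39%), 245 higher (1.87%) and 331 lower (2.52%), and 475 were called in both fits with the same sign. Within the low side 358 were called (2.73%), 159 higher (1.21%) and 199 lower (1.52%). limma-voom on the recovered reads, added after seeing the data, called 1649 (12.6%), 857 higher (6.53%) and 792 lower (6.04%). Leaving out IL-33/13/17A replicate 1, the only replicate of its group on the low side, gave 1039 higher (7.92%) and 989 lower (7.54%), 2028 in all (15.5%). Leaving out any other of the 6 libraries gave 245 to 311 higher and 254 to 310 lower. Between the 3 libraries of each group, values did not overlap for 4096 genes (31.2%), with 2015 higher (15.4%) and 2081 lower (15.9%) in IL-33/13/17A. Of the 51 genes past 2-fold, 38 were called with the library term, 29 of the 35 higher genes and 9 of the 16 lower genes. The median change of all tested genes was 0.01 (log2), and the median standard error was 0.08.

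The rises were led by Nos2, the inducible nitric oxide synthase (chromosome 11, 78920787 to 78960254, mm10), whose mean level was 14.4-fold higher with IL-17A. Nos2 had 98.5, 99.5 and 105 TPM in the 3 IL-33/13/17A libraries, against 6.89, 6.57 and 7.57 TPM in the IL-33/13 libraries. No library of either group came near the other group, and the log2 change was 3.67 ± 0.07 (SE, limma adjusted p = 6.9e-12). With the library term it was 3.58 and within the low side 3.64. The 12 largest rises were Nos2, Csf3, Dll1, Draxin, Lcn2, Cxcl1, Cxcl2, Nfkbiz, Il33, Il1a, Zc3h12a and Trdc, and all 12 were called with the library term. The 12 largest falls were Hsd3b6, Edn1, Lmod1, Crct1, Ankrd1, H19, Bok, Mcam, Hspb7, Myl9, Cnn1 and Cavin2. Among these 12 falls, all with a mean of at least 5 TPM in the higher group, Crct1 was not called with the term (adjusted p = 0.058).

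**Figure D1:**
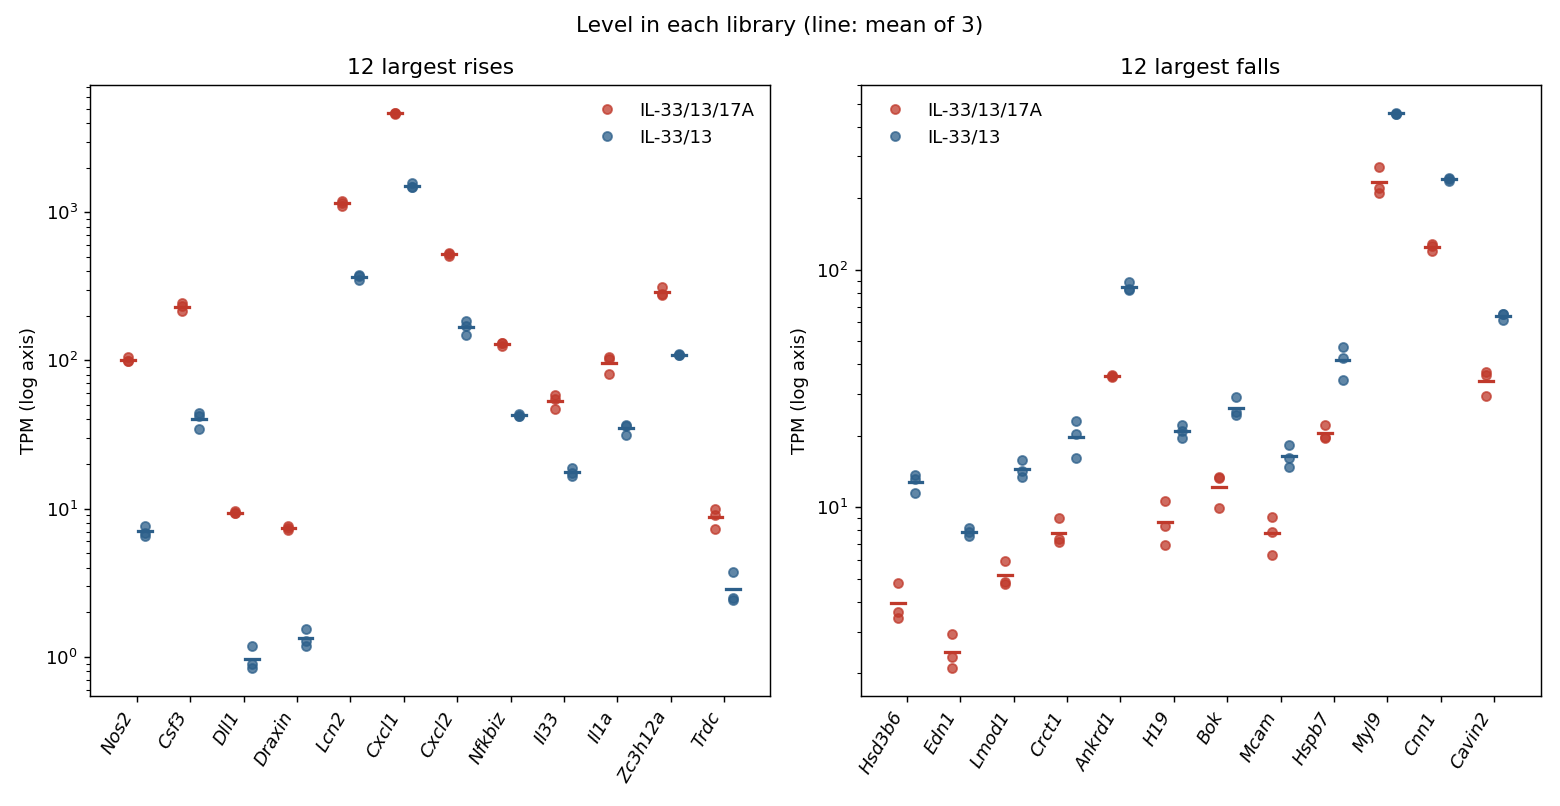
TPM on a log axis of the 12 genes with the largest rise and the 12 with the largest fall, in the IL-33/13/17A libraries (left of each pair) and the IL-33/13 libraries. Points are libraries and lines are means of 3. For none of the 24 genes, which were chosen for their large called changes, do the groups overlap. Groups did not overlap for 31.2% of all 13120 genes.

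Of 15 tested IL-17 receptor chains and adaptors, 1 was higher and 1 lower (13.3% called, against 8.01% of all genes), and 0 were called with the library term. Il17ra had 34.0, 33.1 and 35.9 TPM in IL-33/13/17A, against 30.3, 34.2 and 35.0 TPM in IL-33/13, and the groups overlapped. Its log2 change was 0.05, with a 95% interval of -0.09 to 0.19. Il17rc, the partner chain, averaged 21.5 ± 0.67 TPM with IL-17A and 24.8 ± 1.21 TPM without it, a change of -0.20 that did not pass the test (adjusted p = 0.18). The members called were Traf3ip2, which was higher (0.28 ± 0.06), and Traf4, a regulator of Act1 signalling, which was lower (-0.25 ± 0.05). Neither was called with the library term (adjusted p = 0.057 and 0.11).

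Among 16 chains and signal proteins for IL-33 and IL-13, 2 were called higher and 0 lower (12.5%, against 8.01% of all genes). With the library term 1 was higher and 1 lower (12.5%, against 4.39%). Il13ra2, the decoy receptor that binds IL-13, had 29.8, 36.1 and 37.6 TPM in IL-33/13/17A, against 22.4, 21.1 and 23.2 TPM in IL-33/13. All 3 libraries with IL-17A lay above the others, and the log2 change was 0.60 ± 0.09 (adjusted p = 0.0018; 0.44 with the library term, adjusted p = 0.010). Il13ra1, the signalling chain, changed by 0.35 and was not called with the term (adjusted p = 0.063). Il1rl1, which encodes ST2, averaged 367 ± 19.5 TPM with IL-17A and 336 ± 9.0 TPM without (adjusted p = 0.35). Il4ra averaged 288 ± 7.84 TPM and 300 ± 6.38 TPM in the same order (adjusted p = 0.32).

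Within the NF-kB list, the inducible co-regulator Nfkbiz stood far from the rest. This gene encodes IkB-zeta, a nuclear partner of NF-kB (chromosome 16, 55811375 to 55838899). Nfkbiz had 126, 132 and 131 TPM in IL-33/13/17A, against 42.2, 42.4 and 43.6 TPM in IL-33/13. The groups were far apart relative to their spread, with a log2 change of 1.58 ± 0.04 (adjusted p = 1.1e-10). Of 18 tested members, 4 were higher and 1 lower (27.8%, against 8.01% of all genes). With the library term 2 were higher and 0 lower (11.1%, against 4.39%). The 4 became 2 without IL-33/13 replicate 1 or 2 or without IL-33/13/17A replicate 2 or 3. The other member called in both fits was Nfkbia, the feedback inhibitor IkB-alpha, at 466 ± 18.9 TPM with IL-17A and 336 ± 13.4 TPM without it (0.47 ± 0.05). Tnfaip3, Rel and Tnip2 were called without the term and not with it.

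Of 17 C/EBP factors and regulators of mRNA stability, 2 were higher and 0 lower, both without and with the library term. That was 11.8% in each fit, against 8.01% and 4.39% of all genes. Zc3h12a encodes Regnase-1, an endonuclease that degrades inflammatory mRNAs. It had 311, 281 and 277 TPM in IL-33/13/17A and 108, 109 and 110 TPM in IL-33/13. Replicate 1 was the highest, and the change was 1.40 ± 0.05 (adjusted p = 1.5e-08). Cebpd changed by 0.32 ± 0.05 (adjusted p = 0.0033). Cebpb had 3428, 2840 and 2597 TPM with IL-17A, against 3058, 3059 and 2965 TPM without it, with overlapping groups and an interval of -0.42 to 0.33. In the immediate early list of 24, 3 were higher and 1 lower (16.7%, against 8.01% of all genes). With the library term 2 were higher and 0 lower (8.33%, against 4.39%). Ier3 rose by 0.89 ± 0.04 and Nr4a2 by 0.52 ± 0.07, both called with the term too, while Nr4a1 (0.22) and the lower member Klf4 (-0.39) were not.

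Among the lists of secreted factors, chosen with earlier results of these data known, neutrophil chemokines and colony-stimulating factors had the highest share called. Of 9 tested members, 7 were higher and 1 lower, both without and with the library term. That was 88.9% in each fit, against 8.01% and 4.39% of all genes. The 9 members had a median change of 1.05, against 0.01 for all genes. Within the low side 4 were higher and 1 lower. Csf3, which encodes G-CSF, the growth factor of neutrophils (chromosome 11, 98701263 to 98703629), had 242, 216 and 233 TPM in IL-33/13/17A. In IL-33/13 it had 34.5, 44.3 and 41.8 TPM. The lowest library with IL-17A was thus above the highest without it, and the change was 2.50 ± 0.13 (adjusted p = 1.8e-07).

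Cxcl1, a ligand of the neutrophil receptor CXCR2 (chromosome 5, 90891241 to 90893115), had 4666, 4694 and 4629 TPM in IL-33/13/17A, against 1478, 1471 and 1582 TPM in IL-33/13. Its neighbour Cxcl2 (90903871 to 90905938) had 508, 527 and 520 TPM with IL-17A, against 149, 172 and 183 TPM without it. Neither gene's groups overlapped, with log2 changes of 1.63 ± 0.15 (adjusted p = 2.9e-05) and 1.62 ± 0.24 (adjusted p = 0.0014). Within the low side Cxcl2 changed by 1.59 and was not called (adjusted p = 0.059). Cxcl5 rose by 1.17 ± 0.07 to 6187 ± 178 TPM, against 2754 ± 93.4 TPM. Cxcl3 rose by 0.85 ± 0.11 and Pf4, a platelet-factor chemokine, by 0.51 ± 0.10. Csf2, which encodes GM-CSF, had 27.4, 31.4 and 32.0 TPM in IL-33/13/17A, against 13.3, 14.2 and 14.8 TPM in IL-33/13 (1.05 ± 0.16, adjusted p = 0.0019). Ppbp, the remaining tested ligand, averaged 21.2 ± 5.32 TPM and 12.1 ± 1.39 TPM in the same order (adjusted p = 0.27).

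The exception in direction was Csf1, which encodes M-CSF, the growth factor of macrophages (chromosome 3, 107741048 to 107760469). It had 354, 368 and 341 TPM in IL-33/13/17A, against 624, 652 and 634 TPM in IL-33/13. The 3 libraries with IL-17A all lay far below the others, and the change was -0.84 ± 0.03 (adjusted p = 1.9e-08; -0.86 with the library term and -0.84 within the low side). The macrophage markers summed to similar totals in both groups, as given above.

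Promoters are shown for 4 secreted factors that rose, chosen because they hold matches to a motif known for NF-kB or C/EBP factors. They are RefSeq sequences (build GRCm38.p6) from 250 bases before to 50 bases after the annotated start, read 5′ to 3′ on the strand of the gene. Capitals mark matches on either strand to the kappaB motif searched (GGG, any 2 bases, then TTTCC) or to the C/EBP motif searched (TTGCNNAA), and no matches overlapped. Regions are Cxcl1 at chr5:90890995-90891294 (+), Cxcl2 at chr5:90903649-90903948 (+), Lcn2 at chr2:32387690-32387989 (-) and Il6 at chr5:30012864-30013163 (+).
Cxcl1: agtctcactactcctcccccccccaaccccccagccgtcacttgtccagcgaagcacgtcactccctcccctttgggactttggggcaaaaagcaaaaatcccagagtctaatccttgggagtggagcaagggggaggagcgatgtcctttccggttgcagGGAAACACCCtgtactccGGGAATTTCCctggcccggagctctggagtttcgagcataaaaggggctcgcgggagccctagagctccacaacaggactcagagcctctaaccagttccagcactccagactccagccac
Cxcl2: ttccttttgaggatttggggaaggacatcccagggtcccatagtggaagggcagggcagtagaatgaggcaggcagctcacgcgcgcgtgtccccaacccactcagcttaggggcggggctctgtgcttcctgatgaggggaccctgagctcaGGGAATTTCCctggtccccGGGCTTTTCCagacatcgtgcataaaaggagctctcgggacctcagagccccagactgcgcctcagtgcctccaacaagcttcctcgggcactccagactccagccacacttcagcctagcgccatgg
Lcn2: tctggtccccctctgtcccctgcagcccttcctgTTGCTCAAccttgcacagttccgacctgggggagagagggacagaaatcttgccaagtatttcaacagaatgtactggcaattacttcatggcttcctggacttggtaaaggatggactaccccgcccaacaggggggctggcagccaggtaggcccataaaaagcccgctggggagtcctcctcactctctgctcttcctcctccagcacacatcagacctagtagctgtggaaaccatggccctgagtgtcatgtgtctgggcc
Il6: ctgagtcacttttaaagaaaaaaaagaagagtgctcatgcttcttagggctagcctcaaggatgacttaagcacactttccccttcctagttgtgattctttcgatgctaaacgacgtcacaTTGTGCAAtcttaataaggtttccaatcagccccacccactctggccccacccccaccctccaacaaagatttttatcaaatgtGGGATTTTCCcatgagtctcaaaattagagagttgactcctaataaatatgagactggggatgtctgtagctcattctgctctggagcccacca
Cxcl1 and Cxcl2 each held 2 kappaB matches within 100 bases of the start, and both carry the same 10 letters GGGAATTTCC. Il6 held 1 match of each motif and Lcn2 held 1 C/EBP match. The RefSeq start used for Lcn2 lies 513 bases from the gene start in the files, inside the gene span given below. Of the largest rises, Dll1, Draxin, Il1a and Zc3h12a held neither motif. Of 32851 promoters of the same length, each counted by itself, 1.63% held the kappaB motif and 10.8% the C/EBP motif. RefSeq promoters matched 8 of the 12 genes with the largest rises, and 2 of those 8 held each motif in at least 1 promoter. Over all genes called higher, 358 had a promoter, of which 5.03% held the kappaB motif and 17.9% the C/EBP motif in at least 1 promoter. Counted per gene in the same way, the shares were 1.62% and 7.64% for the 432 lower genes. They were 2.04% and 9.99% for the 9454 tested genes with a promoter. A match is a description of these letters and shows no binding.

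Of 18 tested chemokines for monocytes, eosinophils and lymphocytes, 2 were higher and 1 lower, both without and with the library term. That was 16.7% in each fit, against 8.01% and 4.39% of all genes. The 2 became 5 with the compared groups alone and 5 with limma-voom, and 1 without any single library other than IL-33/13/17A replicate 1, whose absence gave 3. Cx3cl1, the ligand of CX3CR1, had 21.1, 21.4 and 21.8 TPM in IL-33/13/17A, against 11.5, 10.7 and 12.7 TPM in IL-33/13 (0.83 ± 0.11, adjusted p = 0.00055). Cxcl14 fell by 0.32 on the log2 scale. Ccl2, the main monocyte attractant, had 5184, 5168 and 4806 TPM with IL-17A, against 4181, 4309 and 4170 TPM without it. Its groups did not overlap, but the change of 0.26 missed the threshold (adjusted p = 0.063) and passed it with the library term (0.39, adjusted p = 0.0086). Ccl11, the eosinophil attractant eotaxin, averaged 1161 ± 47.0 TPM with IL-17A and 944 ± 46.1 TPM without it (adjusted p = 0.19).

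Of 17 tested cytokines of the IL-6, IL-1 and TNF families with Tslp, 11 were higher and 1 lower (70.6% called, against 8.01% of all genes). With the library term 11 were higher and 0 lower (64.7%, against 4.39%). The median change of the 17 was 0.50. The transcript of IL-33 itself, whose protein was also supplied in the medium, had 46.9, 58.4 and 55.1 TPM in IL-33/13/17A, against 18.9, 16.6 and 17.4 TPM in IL-33/13 (chromosome 19, 29925114 to 29960718). All libraries with IL-17A were well above those without it, and the change was 1.54 ± 0.11 (adjusted p = 3.9e-06), or 1.32 with the library term. Il1a, another alarmin of the IL-1 family, had 80.9, 102 and 105 TPM with IL-17A, against 31.5, 36.8 and 35.8 TPM without it (1.43 ± 0.19). Replicate 1 was the lowest of its group for both genes, and the changes of that single library against the 3 IL-33/13 libraries were 1.37 for Il33 and 1.20 for Il1a.

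Il6 had 757, 881 and 900 TPM in IL-33/13/17A, against 412, 389 and 401 TPM in IL-33/13. That gave a change of 1.07 ± 0.08 (adjusted p = 3.9e-06), again with replicate 1 the lowest of its group. Other members of the gp130 family rose less: Lif by 0.69 ± 0.07, Clcf1 by 0.50 ± 0.12 and Il11 by 0.47 ± 0.06. Il1b rose by 1.02 ± 0.15. Of the TNF family, Tnfsf15 rose by 0.98 ± 0.08 and Tnfsf13b by 0.59. Tslp, an epithelial alarmin of type 2 responses, rose by 0.76 ± 0.12. Il1rn, the natural antagonist of the IL-1 receptor, rose by 0.50 ± 0.08. Osm and Tnf were among the 5 members not called.

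Acute-phase and antimicrobial genes showed 12 of 16 members higher and 0 lower, with and without the library term, and a median change of 0.68. The share called was 75% in each fit, against 8.01% of all genes without the term and 4.39% with it. Lcn2 encodes lipocalin-2, which sequesters bacterial iron carriers (chromosome 2, 32384633 to 32388252). It had 1099, 1146 and 1198 TPM in IL-33/13/17A, against 371, 351 and 379 TPM in IL-33/13. The groups were clearly separate, with a change of 1.64 ± 0.10 (adjusted p = 1.2e-06). Saa3, a serum amyloid A gene, averaged 2796 ± 102 TPM with IL-17A and 1721 ± 68.5 TPM without it (0.70 ± 0.10). Camp, the cathelicidin precursor, rose by 1.18 ± 0.25, Steap4 by 0.85 ± 0.09 and Cp, ceruloplasmin, by 0.74 ± 0.09. S100a8 rose by 0.85 ± 0.13, and it is also a neutrophil marker; its level was 136 ± 20.4 TPM with IL-17A and 74.4 ± 3.21 TPM without it. The other neutrophil marker tested, Csf3r, was not called. Values of Serpina3g, Serpina3n, Saa1 and Saa2 are uncertain because near-identical copies can share reads.

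**Figure D2:**
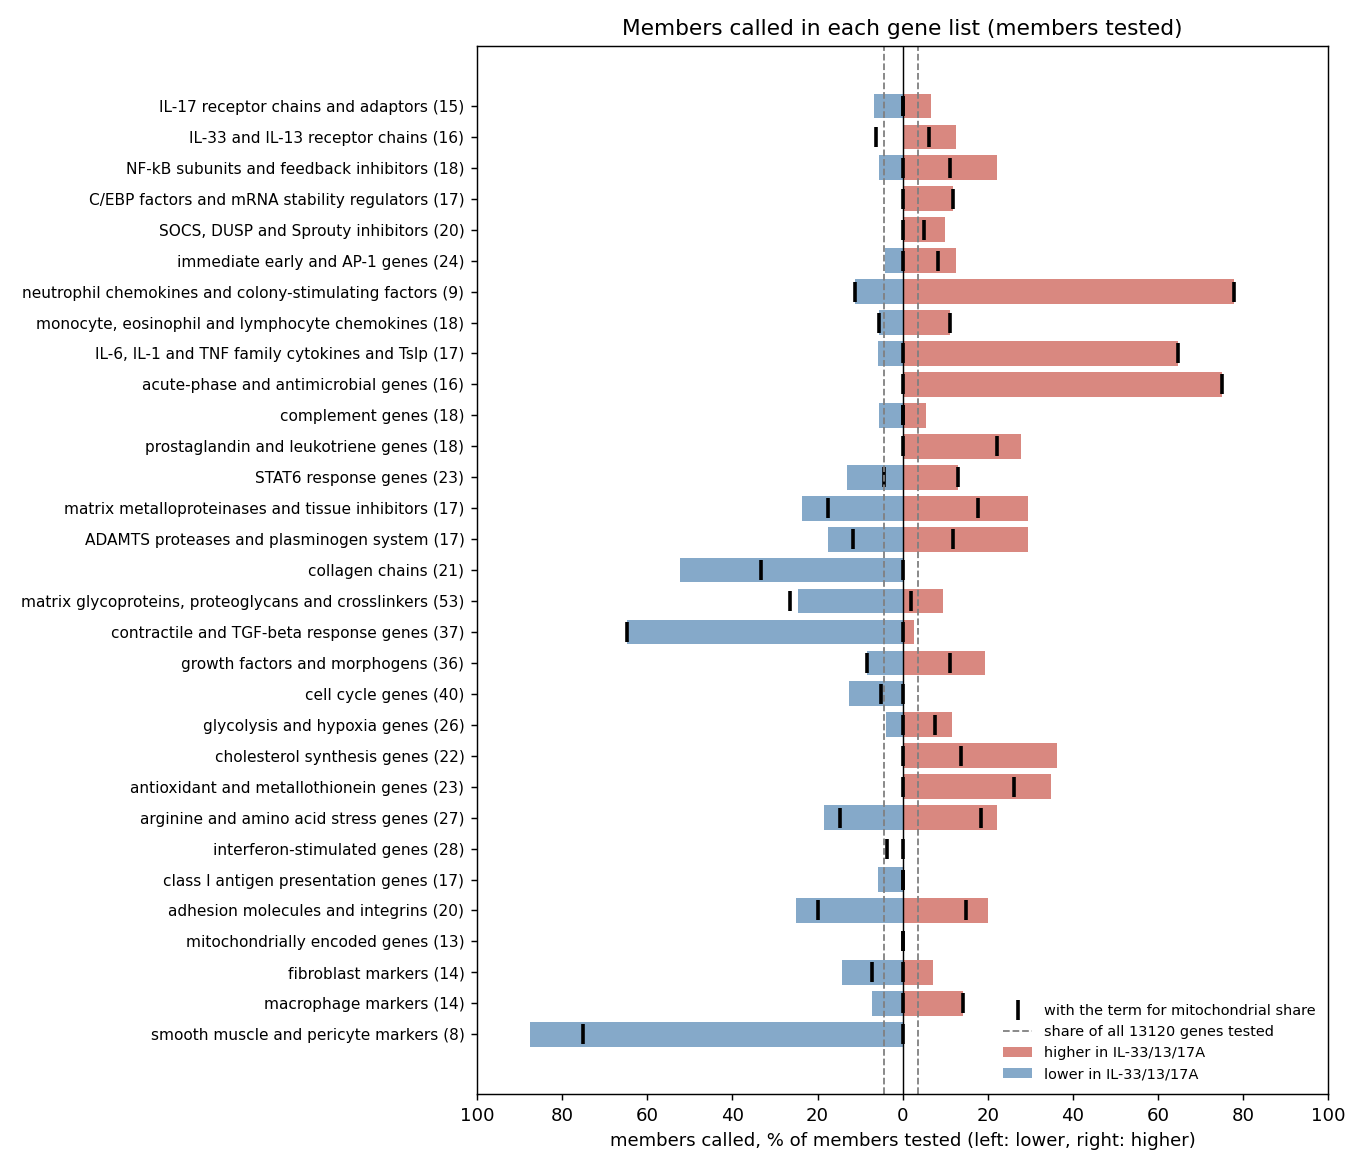
Share of tested members of each gene list called lower (left bars) and higher (right bars) in IL-33/13/17A than in IL-33/13, for lists with at least 8 tested members (number in parentheses). Black ticks are the shares with the library term, and dashed lines are the shares over all 13120 genes, 3.67% higher and 4.34% lower.

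Prostaglandin genes showed 5 of 18 members higher and 0 lower (27.8% called, against 8.01% of all genes). With the library term 4 were higher and 0 lower (22.2%, against 4.39%). Ptgs2, which encodes COX-2, had 2772, 3048 and 3043 TPM in IL-33/13/17A, against 1597, 1555 and 1614 TPM in IL-33/13. The groups did not overlap, and the change was 0.89 ± 0.05 (adjusted p = 3.7e-07). Ptges, the inducible prostaglandin E synthase, rose by 0.46 ± 0.03 and Pla2g4a, the phospholipase that releases arachidonate, by 0.34. Ptgs1, the constitutive enzyme, was not called.

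Of 23 tested genes that respond to STAT6, 3 were higher and 3 lower (26.1%, against 8.01% of all genes). With the library term 3 were higher and 1 lower (17.4%, against 4.39%). Arg1, the arginase induced by IL-13, had 1603, 1598 and 1630 TPM in IL-33/13/17A, against 1687, 1677 and 1611 TPM in IL-33/13. The groups overlapped, and the change of -0.04 had an interval of -0.15 to 0.07. Cish, a STAT feedback inhibitor, averaged 100.5 ± 7.39 TPM and 99.2 ± 6.44 TPM in the same order, with an interval of -0.20 to 0.23. Aldh1a3 and Ch25h had intervals of -0.19 to 0.27 and -0.07 to 0.10. The members called in both fits were Il13ra2, Vcam1 and Rgs16, which were higher, and Postn, a matrix protein induced by IL-13, which was lower. Postn had 269, 308 and 295 TPM with IL-17A, against 389, 377 and 395 TPM without it (-0.41 ± 0.07, adjusted p = 0.0043).

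Arginine genes moved in both directions. Beside Nos2, the cationic amino acid transporter Slc7a2 had 108, 120 and 115 TPM in IL-33/13/17A, against 78.6, 79.2 and 76.2 TPM in IL-33/13 (0.55 ± 0.05, adjusted p = 1.3e-05). Odc1, which makes putrescine from ornithine, rose by 0.76 ± 0.06 and Arg2, the mitochondrial arginase, by 0.33 ± 0.06. Ass1, which regenerates arginine, was lower by the test (-0.28 ± 0.06) and was not called with the library term (adjusted p = 0.088). The serine synthesis gene Phgdh fell to 23.8 ± 1.84 TPM with IL-17A, against 34.2 ± 0.29 TPM without it. In the whole list of 27 members, 6 were higher and 5 lower (40.7% called, against 8.01% of all genes). With the term 5 were higher and 4 lower (33.3%, against 4.39%). The lower count was 2 or 3 without IL-33/13 replicate 1 or 2 or IL-33/13/17A replicate 2 or 3.

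Contractile genes and targets of TGF-beta held the most falls of any list, and the lists were chosen with earlier results of these data known. Of 37 tested members, 24 were lower and 1 higher (67.6% called, against 8.01% of all genes). With the library term 24 were lower and 0 higher (64.9%, against 4.39%). Their median change was -0.32, with the term -0.34 and within the low side -0.39. Acta2, the smooth muscle actin that marks myofibroblasts (chromosome 19, 34241090 to 34255590), had 406, 430 and 428 TPM in IL-33/13/17A, against 762, 735 and 744 TPM in IL-33/13. Both groups were tight and far apart, with a change of -0.82 ± 0.04 (adjusted p = 3.1e-07). Cnn1, the actin-binding calponin, had 120, 128 and 126 TPM with IL-17A, against 241, 237 and 244 TPM without it (-0.94 ± 0.04). Myl9, the myosin light chain, had 270, 209 and 221 TPM, against 454, 458 and 453 TPM in the same order. Its replicate 1 was the highest of the group with IL-17A, and the change of -0.97 was -0.83 with the term.

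Lmod1, which nucleates actin filaments in smooth muscle, changed by -1.32 ± 0.08, with means of 5.19 ± 0.68 TPM in IL-33/13/17A and 14.5 ± 1.19 TPM in IL-33/13. Tagln fell by 0.62, Mylk, the myosin light chain kinase, by 0.67 and Tpm2, a tropomyosin, by 0.69 on the log2 scale. Ankrd1, a target of YAP and mechanical load, had 36.0, 35.4 and 35.6 TPM with IL-17A, against 82.2, 89.1 and 83.1 TPM without it (-1.23 ± 0.06). Ccn2, the TGF-beta target known as CTGF, averaged 1868 ± 67.2 TPM and 2892 ± 24.3 TPM in the same order (-0.63 ± 0.05). The ligand Tgfb3 fell by 0.41, whereas Tgfb1 averaged 169 ± 9.66 TPM with IL-17A and 173 ± 3.82 TPM without it, with an interval of -0.15 to 0.09. Of the 8 tested smooth muscle and pericyte markers, several of them also in this list, 7 were lower and 0 higher (87.5% called, against 8.01% of all genes). With the term 6 were lower (75%, against 4.39%). Rgs5, below the filter and not tested, went the other way. It had 0.52, 0.57 and 0.71 TPM in IL-33/13/17A, against 0.15, 0.25 and 0.18 TPM in IL-33/13, on 7 to 30 reads per library. Abcc9, also not tested, overlapped between the groups. The summed level of all 10 markers in the files was 181 to 188 TPM with IL-17A and 332 to 339.7 TPM without it, and whether cells of those types were present was not tested.

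Other large falls lay outside the contractile list. Edn1, which encodes the vasoconstrictor endothelin-1, had 2.10, 2.34 and 2.94 TPM in IL-33/13/17A, against 8.19, 7.85 and 7.60 TPM in IL-33/13 (-1.37 ± 0.15). Hsd3b6, a steroid dehydrogenase, averaged 3.95 ± 0.74 TPM with IL-17A and 12.8 ± 1.10 TPM without it (-1.48 ± 0.12). The imprinted RNA H19 averaged 8.65 ± 1.87 TPM and 21.0 ± 1.37 TPM in the same order. Bok, a BCL-2 family member, fell by 1.05 and Cavin2, a caveolar coat protein, by 0.89 on the log2 scale. Inhbb, the activin B subunit, had 25.02, 26.3 and 23.6 TPM with IL-17A, against 47.3, 45.9 and 46.9 TPM without it (-0.88 ± 0.06). Inhba, the activin A subunit, was called higher by 0.27, and not with the library term (adjusted p = 0.15).

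Other large rises lay outside the lists. Dll1, a Notch ligand (chromosome 17, 15367354 to 15376872), had 9.59, 9.31 and 9.27 TPM in IL-33/13/17A, against 1.17, 0.90 and 0.84 TPM in IL-33/13. Draxin, a secreted guidance protein, had 7.19, 7.36 and 7.64 TPM with IL-17A, against 1.55, 1.27 and 1.18 TPM without it. The groups were far apart in both, with changes of 2.40 ± 0.09 and 1.85 ± 0.08 on a scale that understates low genes. Draxin overlaps Mad2l2 on the opposite strand, and since the counting's use of strand is not given in the sources used here, their reads cannot be told apart. Trdc, the constant segment of the delta T-cell receptor, had 7.28, 9.98 and 9.08 TPM with IL-17A, against 3.72, 2.41 and 2.50 TPM without it (1.34 ± 0.20). Ptprc, a marker of all leukocytes, changed by 0.25 and was called by limma-voom on recovered reads but not by limma (adjusted p = 0.14).

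Collagen chains showed 11 of 21 tested members lower and 0 higher, with a median change of -0.28 (52.4% called, against 8.01% of all genes). With the library term 7 were lower (33.3%, against 4.39%). Without IL-33/13 replicate 2, and without the term, 7 were lower. Col6a3 had 22.04, 22.02 and 23.1 TPM in IL-33/13/17A, against 32.2, 32.1 and 32.4 TPM in IL-33/13 (-0.51 ± 0.04, adjusted p = 5.9e-06). Col6a1 fell by 0.35 on the log2 scale and was called with the term. For the fibrillar chains the picture was weaker. Col1a1 averaged 3189 ± 251 TPM with IL-17A and 4027 ± 78.5 TPM without it (adjusted p = 0.056), and Col1a2 was called at -0.30 but not with the term (adjusted p = 0.072). Col3a1 averaged 1349 ± 41.9 TPM and 1317 ± 41.0 TPM in the same order, with an interval of -0.07 to 0.14.

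Of 53 matrix glycoproteins, proteoglycans and crosslinkers, 13 were lower and 5 higher (34% called, against 8.01% of all genes). With the library term 14 were lower and 1 higher (28.3%, against 4.39%). The compared groups alone gave 5 lower and 1 higher, and the low side 8 and 1. Of the fits without 1 library, those without IL-33/13 replicate 1, IL-33/13 replicate 3 or IL-33/13/17A replicate 2 gave 8 lower and that without IL-33/13 replicate 2 gave 5, each with 1 higher. The crosslinking enzyme Loxl3 had 120, 115 and 109 TPM in IL-33/13/17A, against 168, 174 and 160 TPM in IL-33/13 (-0.54 ± 0.06). The hyaluronan synthase Has1 was the member higher in both fits, at 20.6 ± 2.87 TPM with IL-17A and 14.1 ± 1.02 TPM without it.

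Matrix proteases and their inhibitors moved in both directions. Mmp9, a gelatinase, had 84.8, 88.2 and 86.7 TPM in IL-33/13/17A, against 38.8, 41.0 and 41.6 TPM in IL-33/13 (1.08 ± 0.05, adjusted p = 5.1e-08). Mmp3 rose by 0.55 ± 0.07. The inhibitor Timp3 had 30.9, 33.2 and 34.2 TPM with IL-17A, against 57.8, 59.3 and 59.2 TPM without it (-0.82 ± 0.06), and Mmp14, a membrane-bound collagenase, fell by 0.37 on the log2 scale. Timp1 had 3706, 3300 and 2964 TPM with IL-17A, against 3436, 3387 and 3271 TPM without it, with overlapping groups. In all, 5 of 17 metalloproteinases and inhibitors were higher and 4 lower (52.9% called, against 8.01% of all genes). With the library term 3 were higher and 3 lower (35.3%, against 4.39%). Without IL-33/13 replicate 2, IL-33/13/17A replicate 2 or IL-33/13/17A replicate 3, 3 were higher.

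**Figure D3:**
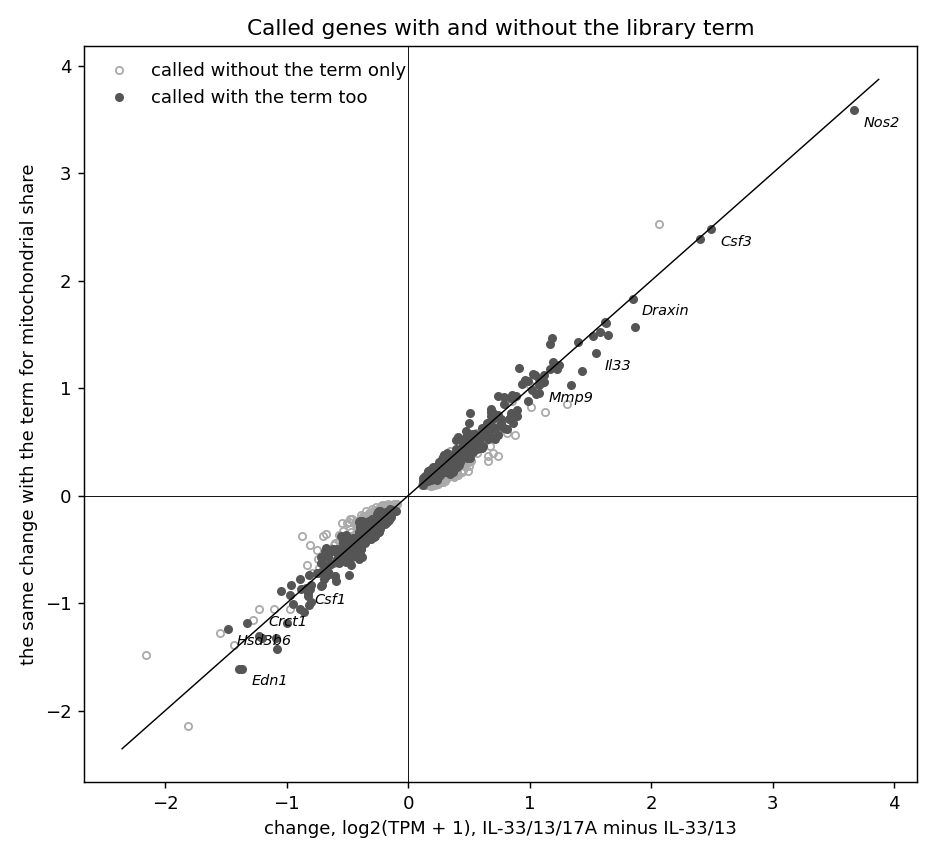
Change of the 1051 called genes on the log2(TPM + 1) scale, IL-33/13/17A minus IL-33/13, without (x) and with (y) the library term. Filled points were also called with the term, as 475 were, and the diagonal marks equal changes; the largest rises and falls of named genes lie close to it.

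The same cytokine was also added to IL-33 alone, and that step shares no library with the one described here. IL-17A added to IL-33 called 488 genes higher (3.72%) and 845 lower (6.44%), 10.2% of those tested. Between the 2 steps, 491 genes were called with the same sign, 46.7% of the calls made with IL-13 present and 36.8% of those made without it, and 10 with opposite signs. Of the 51 genes past 2-fold with IL-13 present, 43 had the same sign and 33 were also called in the step without it. Nos2 changed by 3.67 with IL-13 present and by 3.32 without it, Csf3 by 2.50 and 2.69, and Acta2 by -0.82 and -1.01. None of these 3 pairs differed past the test of the difference.

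The difference of the 2 effects was called for 48 genes (0.366%), 22 positive (0.168%) and 26 negative (0.198%). With the library term it was called for 2, Tgfb3 and Rgs16 (0.0152%). Tgfb3 (chromosome 12, 86056745 to 86079041) had 36.4, 36.6 and 35.2 TPM in IL-33/13/17A, against 47.9, 49.4 and 47.1 TPM in IL-33/13. It had 47.5, 44.5 and 43.6 TPM in IL-33/17A, against 97.3, 105 and 97.0 TPM in IL-33. The fall was thus -0.41 with IL-13 and -1.12 without it, a difference of 0.72 (adjusted p = 0.00026; 0.66 with the term, adjusted p = 0.029). Tgfb3 overlaps Ttll5 on the opposite strand. Rgs16, a regulator of G-protein signalling, averaged 589 ± 16.9 TPM in IL-33/13/17A and 516 ± 14.4 TPM in IL-33/13, a change of 0.19, against a change of 0.86 in the step without IL-13. The difference was -0.67 (adjusted p = 0.00026; -0.66 with the term, adjusted p = 0.025).

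Among the differences called without the term, Lif rose by 0.69 with IL-13 and by 1.47 without it, and Cish changed by 0.02 and 1.08. Rassf10, a RAS-association protein, rose by 0.99 with IL-13 and by 2.29 without it. Csf1 fell by 0.84 with IL-13 and by 0.43 without it, and Timp3 by 0.82 and 1.57 on the log2 scale. With the library term the adjusted p of the difference was 0.25 for Lif, 0.45 for Cish, 0.36 for Rassf10, 0.068 for Csf1 and 0.068 for Timp3. Leaving out IL-33/17A replicate 1 or IL-33/13/17A replicate 1 raised the count from 48 to 3062 and 2339 genes, and each is the 1 library of its group on the other side of the split from its fellows.

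**Figure D4:**
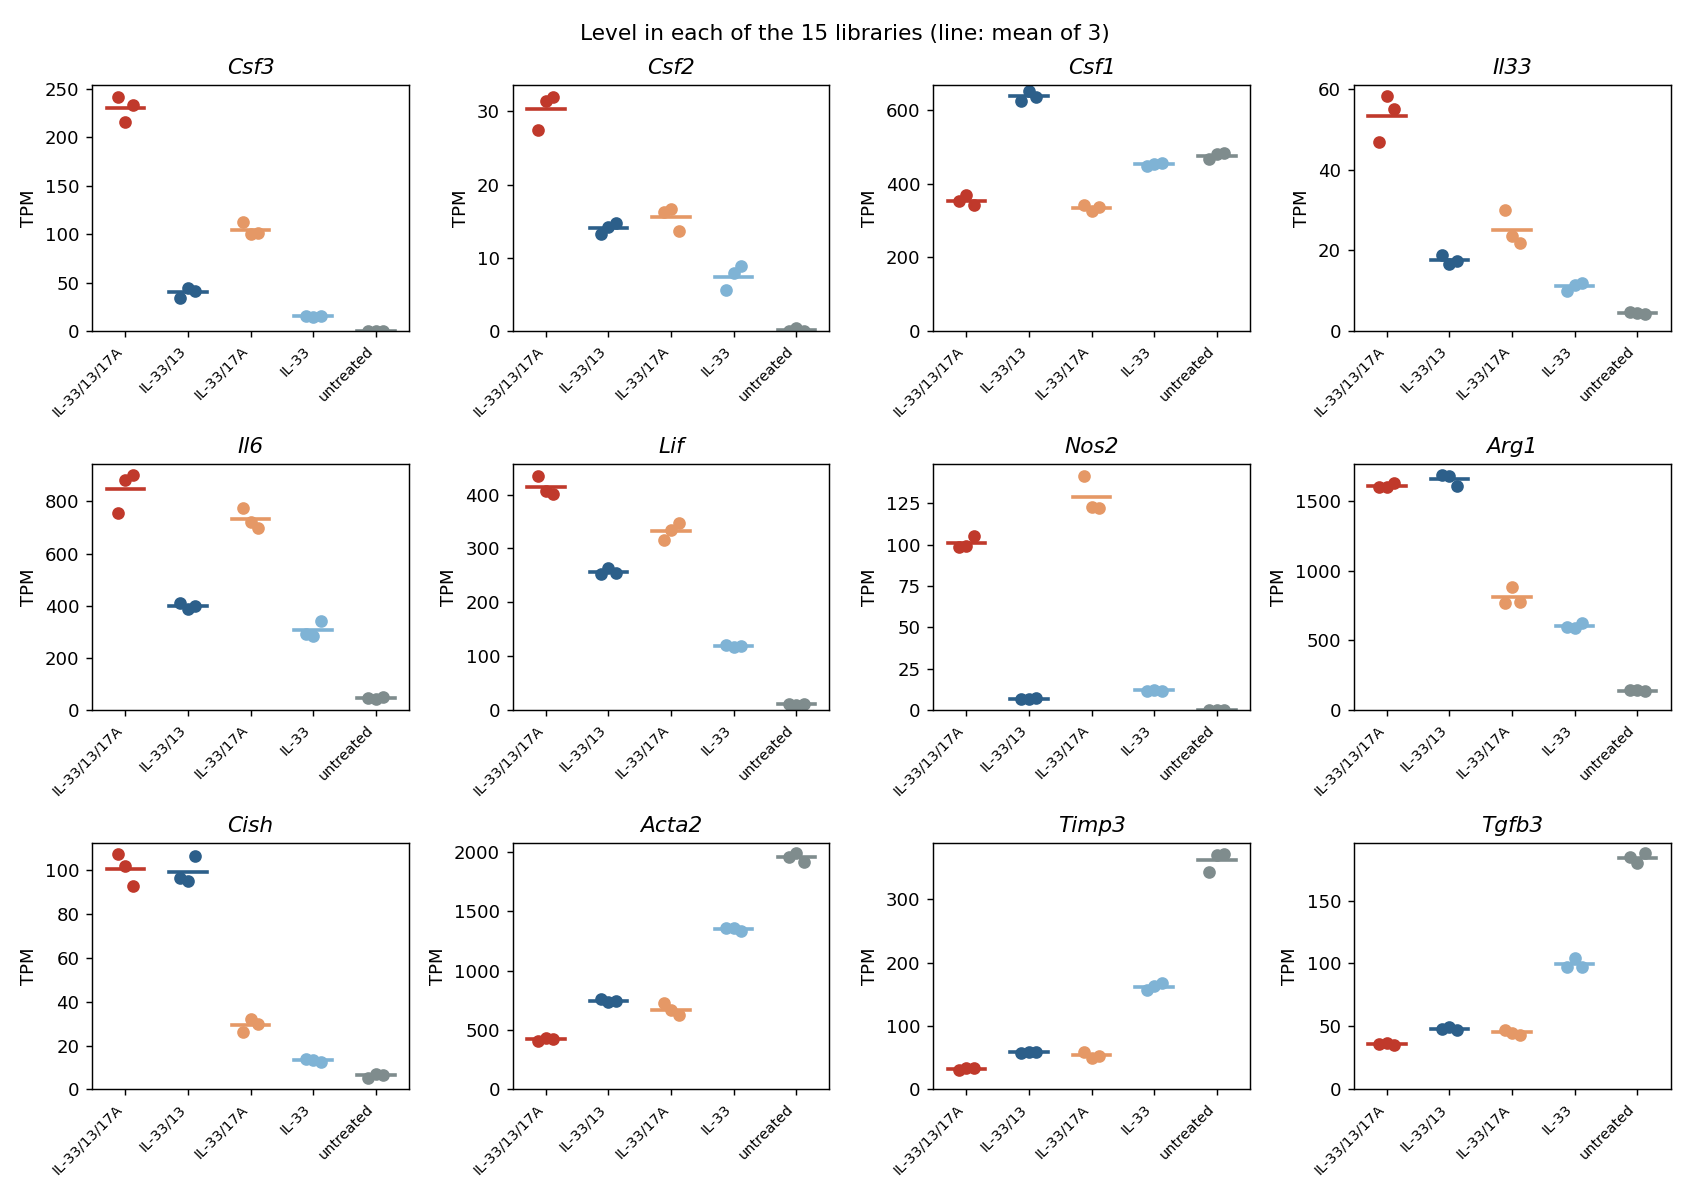
TPM of 12 genes in all 15 libraries, with the IL-33/13/17A libraries left of the IL-33/13 libraries and IL-33/17A left of IL-33. Points are libraries and lines are means of 3; Csf1 is lower and Csf3 higher in both groups with IL-17A, while Arg1 overlaps between IL-33/13/17A and IL-33/13.

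**Figure D5:**
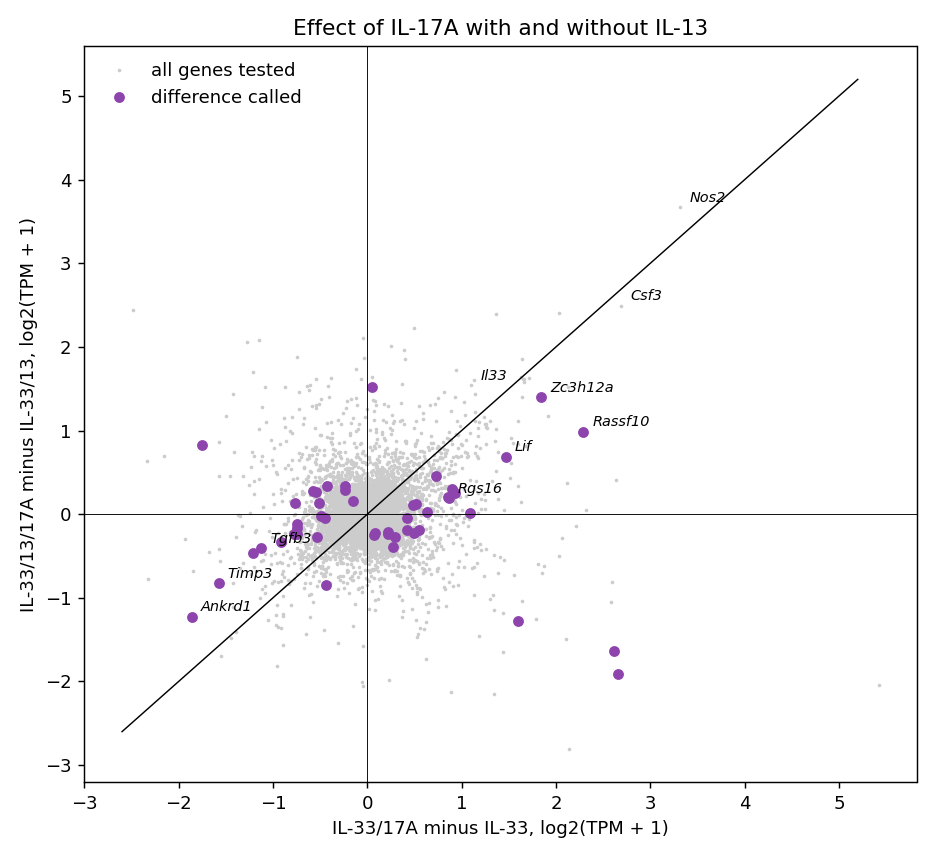
Change with IL-17A in the presence of IL-13 (y, IL-33/13/17A minus IL-33/13) against the change in its absence (x, IL-33/17A minus IL-33), on the log2(TPM + 1) scale, for all 13120 genes. Purple points are the 48 genes with a called difference and the diagonal marks equal changes; Nos2 and Csf3 lie close to it and Tgfb3 and Timp3 above it.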

How the data were processed

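RNA was measured in 15 libraries, 1 file each. The authors deposited TPM values for 18078 genes, aligned with HISAT2 to mm10 per the submitters' processing notes; the counting tool, its use of strand and its rule for reads matching several genes are not recorded in those notes or the file headers. Per the file headers the length column is the gene span, introns included, so levels of different genes depend on intron length and are not ranked against each other; sums over marker lists are compared between groups only. TPM times span was a whole multiple of a constant within 0.03 for 88.8% to 90.3% of low values per library, which gave the reads.

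limma 3.58.1 (R 4.3.3, trend and robust) was fitted to log2(TPM + 1) of all 15 libraries with a mean per group. Genes with 1 TPM or more in at least 3 of the 6 compared libraries were tested (13120; 4958 left out), adjusted by Benjamini-Hochberg over all of them and called at an adjusted p under 0.05. The script was tested on simulated data. Groups came from the treatment label and replicates were numbered in accession order. The genes named are the 12 called genes with the largest rise and the 12 with the largest fall (mean of at least 5 TPM in the higher group, no pseudogenes or unnamed models), members of 37 gene lists, and the 6 largest called differences each way. The lists and members were chosen with earlier results of these data known. Alternatives covered pseudocount, filter, scaling, libraries fitted, the library term and each library left out; limma-voom on the recovered reads was added after seeing the data. Coordinates are those of the files in mm10; of 18062 identifiers found in GENCODE vM21, 17882 had the same ends. Tables were joined with Python 3.11.15 and pandas 2.3.3. Some single-gene results are not reported here.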

Additional observations from a re-analysis of the deposited data

Results flagged for a closer look

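The effect of IL-17A differed past the limma test between the step with IL-13 (IL-33/13/17A minus IL-33/13) and the step without it (IL-33/17A minus IL-33) for 24 named genes, which is what marks them for a closer look. Values are the difference on the log2(TPM + 1) scale, positive where the change with IL-13 is the higher. Positive differences were found for 10 genes: Tgfb2 (0.89), Prelp (0.81), Timp3 (0.75), Fhl1 (0.75), Tgfb3 (0.72), Ankrd1 (0.63), Cemip (0.58), Adamts12 (0.47), Itga5 (0.26) and the mRNA-binding gene Rc3h2 (0.86). Tgfb2 lies at 1.51 ± 0.21 TPM in IL-33/13/17A and 1.29 ± 0.08 TPM in IL-33/13.

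Negative differences were found for the secreted factors Lif (-0.78), Ccl2 (-0.67), Ptx3 (-0.60), Csf1 (-0.41), Ccl6 (-0.39) and Angptl4 (-0.37). Cish (-1.07), Arg1 (-0.46), Ptges (-0.27), Zc3h12a (-0.45), Tnip2 (-0.46), Rgs16 (-0.67), Nat14 (-0.72) and Rassf10 (-1.31) were also negative. Of the 24, Tgfb3 and Rgs16 were called with the library term. The mitochondrial share differs between libraries along this contrast too (IL-33/17A replicate 1 at 5.23%, replicates 2 and 3 at 3.73% and 3.67%), and its part in the other 22 differences was not tested.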

How the results depend on the processing

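No paired analysis was possible because the replicate numbers follow accession order and pair no libraries. Against 481 higher, 570 lower and 48 differing genes, fitting the compared groups alone gave 303 higher and 287 lower. The library term gave 245, 331 and 2, and the low side 159 and 199. limma-voom on recovered reads, chosen after seeing the data, gave 857, 792 and 1449, and 24 differing genes with the library term. A filter at 10 TPM gave 162 differing genes and median-ratio scaling 95. Past 2-fold (35 higher, 16 lower), the 10 TPM filter gave 21 and 6, and 29 were lower with a pseudocount of 0.1 and 29 with limma-voom. Leaving out each library in turn gave 245 to 1039 higher, 254 to 989 lower, 21 to 3062 differing, and past 2-fold 30 to 38 higher and 13 to 30 lower. The largest counts came without IL-33/13/17A replicate 1, except 38 (without IL-33/13 replicate 3) and 3062 (without IL-33/17A replicate 1). The cause of these moves was not tested. Of 202 called genes named here or in the lists, 137 were called with the library term in the same direction, and none changed direction under any alternative listed in the processing section. For the difference of effects the low side gave no value, since untreated and IL-33 libraries all lie on the high side. Depth limits low genes: 1 read on 1 kb was worth 0.85 to 0.96 TPM in the 6 libraries.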

Other observations

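Of 22 tested sterol synthesis genes, 8 were higher in IL-33/13/17A than in IL-33/13 and 0 lower (36.4%, against 8.01% of all genes). With the library term 3 were higher (13.6%, against 4.39%). Fits without 1 of the other libraries compared gave 2 to 4 higher, and that without IL-33/13/17A replicate 1 gave 10. Among 23 antioxidant and metallothionein genes, 8 were higher and 0 lower (34.8%, against 8.01% of all genes). With the term 6 were higher (26.1%, against 4.39%). The metal-binding Mt2 averaged 5697 ± 312 TPM with IL-17A and 4200 ± 74.4 TPM without it, and Mt1 rose by 0.42 ± 0.07. Nqo1, a quinone reductase, rose by 0.43 ± 0.06.

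Of 40 cell cycle genes, 0 were higher and 5 lower (12.5%, against 8.01% of all genes). With the term 2 were lower, Cdc20 and Ccnd1 (5%, against 4.39%). The 5 became 2 without IL-33/13 replicate 2 or 3, and 3 without IL-33/13/17A replicate 2 or 3. Mki67 averaged 52.3 ± 5.39 TPM with IL-17A and 50.2 ± 4.12 TPM without it, with overlapping groups. The 28 tested interferon-stimulated genes had a median change of -0.03, and limma called 0 higher and 0 lower, with 3 at an unadjusted p under 0.05. limma-voom also called 0, and 1 was lower with the term and 1 within the low side. Of 36 tested growth factors and morphogens, 7 were higher and 3 lower (27.8%, against 8.01% of all genes). With the term 4 were higher and 3 lower (19.4%, against 4.39%). Without IL-33/13 replicate 1 or 2 or IL-33/13/17A replicate 2 or 3, 4 were higher, and 1 was lower without any single library other than IL-33/13/17A replicate 1. Vegfa had 396, 398 and 396 TPM with IL-17A, against 299, 319 and 299 TPM without it (0.38 ± 0.03), and Ereg, a ligand of the EGF receptor, rose by 0.59 ± 0.09. The lower members were Inhbb (-0.88), Sfrp1, a secreted Wnt inhibitor (-0.28), and Gas6, a ligand of TAM receptors (-0.12).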
